A study of Mus musculus with 25 samples.

Results

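The bottom of the follicle-associated epithelium (FAEB) was compared with the bottom of the isolated lymphoid follicle (ILFB) that lies beside it, across all genes of a UMI count table. The comparison took the 5 FAEB and 5 ILFB libraries, 10 of the 25 libraries in the series, as the sample labels name them. All libraries came from the jejunum of 2 male C57BL/6 mice, 3 months old by the labels, on regular chow, with no treatment and no altered allele in either segment. Repeats 1 and 2 were taken from mouse 1 and repeats 3 to 5 from mouse 2, and each library pooled tissue of several follicles cut by laser capture microdissection (LCM), in which areas recognised by histology are cut out of a section with a laser. The repeats thus share animals, so that a p-value here is mostly a measure of how dissections of 2 animals varied, and not of how animals vary.

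An isolated lymphoid follicle is a small cluster of B cells in the mucosa of the small intestine, with innate lymphoid cells, dendritic cells, macrophages and stromal cells around and within it. Lymphoid tissue inducer (LTi) cells carry lymphotoxin, which drives stromal cells to make the B cell attractant CXCL13, and follicular dendritic cells hold antigen for B cells. A single layer of epithelium covers the follicle. It contains absorptive enterocytes with a brush border of digestive enzymes, goblet cells that release mucus and, near its dome, M cells that pass antigen to the lymphoid tissue. At the base, the epithelium and the follicle lie next to crypts, whose floor holds stem cells and defensin-making Paneth cells.

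Each library was read as UMIs, molecular tags that count captured mRNA molecules rather than PCR copies. FAEB libraries held 69146 to 100416 UMIs and ILFB libraries 56148 to 213736. The labels were checked against 18 pan-epithelial and 17 pan-immune genes, summed as UMIs per 10,000 UMIs of a library. The epithelial sum lay between 48.7 and 108.5 in FAEB and between 1.12 and 16.2 in ILFB repeats 1 to 4, and the immune sum between 2.40 and 6.08 in FAEB and between 37.3 and 63.5 in those ILFB libraries. ILFB repeat 5 went against its label. Its epithelial sum was 83.4, its immune sum 1.78, and it was the shallowest of the 10 libraries with 3728 genes detected, against 10081 to 14002 in the other ILFB libraries. Results are therefore given with and without ILFB repeat 5.

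**Figure D1:**
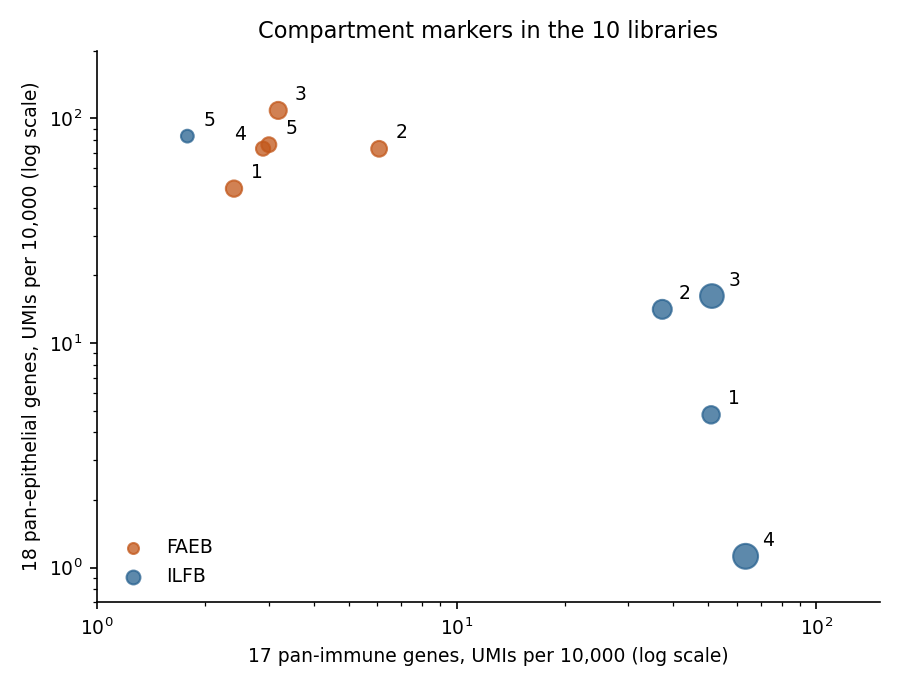
Summed UMIs per 10,000 of 17 pan-immune genes (x axis, log scale) against 18 pan-epithelial genes (y axis, log scale), with 1 point per library, its repeat number beside it and its area in proportion to the library's total UMIs. The 5 FAEB libraries lie at the upper left with epithelial sums of 48.7 to 108.5, ILFB repeats 1 to 4 at the right with immune sums of 37.3 to 63.5, and ILFB repeat 5, with sums of 83.4 and 1.78, lies beside the FAEB libraries.

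The compartment checks followed the same split. Epcam, the epithelial adhesion molecule, had 36, 96, 54, 32 and 31 UMIs in FAEB repeats 1 to 5 and 4, 10, 17, 0 and 46 in ILFB repeats 1 to 5. Ptprc, which encodes the leukocyte antigen CD45, had 4, 9, 2, 0 and 1 UMIs in FAEB and 36, 46, 73, 97 and 0 in ILFB. For both genes the segments parted in repeats 1 to 4, and in repeat 5 the ILFB library had the FAEB pattern.

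The test covered 7491 genes that reached 3 UMIs in 3 or more of the 10 libraries. Of these, 120 were higher in FAEB (1.6% of those tested) and 162 higher in ILFB (2.16%) at an adjusted p under 0.05 in edgeR's quasi-likelihood test with a term for mouse. Without ILFB repeat 5, 251 of 7352 genes were higher in FAEB (3.41%) and 652 higher in ILFB (8.87%). Of the calls over all 10 libraries, 273 were called again in that fit. Log2 fold changes are FAEB over ILFB throughout, so that a positive value means a higher level in FAEB, and they are given ± their standard error. Their median over all genes tested was -0.47 with all 10 libraries and -0.73 without ILFB repeat 5.

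The counts of calls depended on single libraries and on the model. With the repeat number as a block, 91 genes were higher in FAEB and 74 in ILFB, and 205 and 315 when ILFB repeat 5 was also left out. RLE size factors in place of TMM moved the median log2 fold change from -0.47 to -0.25 and gave 173 higher in FAEB and 124 in ILFB, so that the share of calls higher in FAEB went from 42.6% to 58.2%. DESeq2, with its own size factors, gave 191 and 98, a share of 66.1%. The count higher in FAEB was 43 without FAEB repeat 2, 39 without FAEB repeat 3, 63 without FAEB repeat 4, and 37, 68, 60 and 35 without ILFB repeats 1, 2, 3 and 4. The count higher in ILFB was 104, 79, 80 and 87 without FAEB repeats 2 to 5 in turn, and 74, 83, 62 and 58 without ILFB repeats 1 to 4. Within mouse 1 alone, edgeR called 0 genes of 2788 (164 at an unadjusted p under 0.05), and within mouse 2 alone 12 higher in FAEB and 8 higher in ILFB.

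A set of 15 genes higher in FAEB and 35 higher in ILFB was called whichever of the 10 libraries was left out. The former include Reg3b, Reg3g and Lypd8 of antibacterial defence, Lct, Fabp2, Cideb, Cdhr5, Atp1b1 and Maoa of the absorptive enterocyte. Guca2a, Spink1 and Aoc1 are also among them. The latter include Clu, Cd52, Ltb, Lcp1, Coro1a, Cd37, Srgn, Cd79b, Ighd, Napsa, Runx3, Cxcl13, Il7r, Nrp1, C1qa, Lyz2, Apoe, Mfge8, Igfbp7, Sparc, Flna, Tubb5, Hba-a2, Gm26740 and 4930523C07Rik. Every other call named in the paragraphs that follow was lost when at least 1 library was left out.

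**Figure D2:**
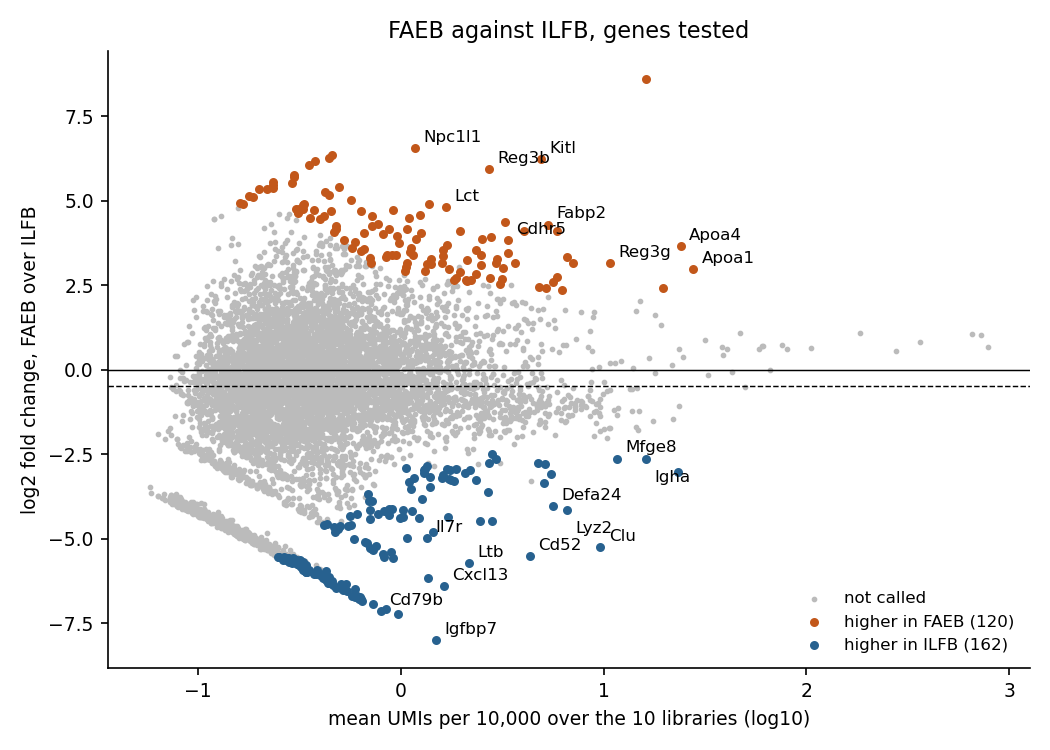
Log2 fold change of FAEB over ILFB (y axis) against the mean UMIs per 10,000 over the 10 libraries (x axis, log10) for the genes tested, with 120 genes higher in FAEB in orange, 162 higher in ILFB in blue, the remaining genes in grey and a dashed line at the median of -0.47. The straight lower edge on the left holds genes with 0 UMIs in FAEB, whose fitted fold change is set by the prior count, and the unlabelled point at the top is Phldb1, 1119 of whose UMIs came from FAEB repeat 4.

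Some calls rested on few molecules. Of the genes higher in ILFB, 80 had 0 UMIs in all FAEB libraries, and of those higher in FAEB, 16 had 0 in all ILFB libraries. For such genes the fold is given as a lower bound, computed by pooling the libraries of a group and setting the group at 0 to 3 UMIs. In 6 of the 120 genes higher in FAEB and 3 of the 162 higher in ILFB, a single library gave at least 80% of the UMIs of the higher group. Phldb1, with the highest fitted log2 fold change named here (8.61), had 4, 0, 0, 1119 and 0 UMIs in FAEB and 0, 1, 0, 3 and 0 in ILFB, so that it described FAEB repeat 4 alone. In bulk tissue of this kind, fewer cells of a type and less RNA per cell cannot be told apart.

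The strand setting of the counting is not given in the sources used here, so reads of genes that overlap on opposite strands cannot be assigned with certainty. Among the genes named, Fabp2, Apoa4, Atp1b1, Cideb, Vil1, Muc13, Ccl25, Slc2a2, Cd52, Lcp1, Coro1a, Cd37, Vpreb3, Napsa, Runx3, Igfbp7, Cxcr5, H2-Oa, Gm26740 and Phldb1 each overlapped a gene with UMIs on the other strand. Slc6a20a, higher in FAEB, and Ccr9, higher in ILFB, overlap each other.

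Start-site sequences are shown first for 4 genes higher in FAEB and 2 higher in ILFB, chosen after their values were seen because each holds a match to a binding motif well known in intestine or in blood cells. Each line is the stretch of 150 bases before the RefSeq start (GRCm38.p6), 5′ to 3′ on the strand of the gene, with the match in capitals. Alpi, the brush border alkaline phosphatase, lies on the minus strand of chromosome 1 (chr1:87101607-87101756) and holds TTTATAGC, a CDX match, and CAAAGTCCA, an HNF4 match. Sis, sucrase-isomaltase, lies on the minus strand of chromosome 3 (chr3:72967864-72968013) and holds a CDX match read from the other strand. Fabp2, the intestinal fatty acid-binding protein, lies on the plus strand of chromosome 3 (chr3:122894922-122895071) and also holds a CDX match. Npc1l1, the cholesterol uptake transporter, lies on the minus strand of chromosome 11 (chr11:6230246-6230395) and holds an HNF1 match read from the other strand. Vpreb3, a gene of B lineage cells, lies on the plus strand of chromosome 10 (chr10:75948150-75948299) and holds the octamer that OCT proteins bind. Cd37, a leukocyte tetraspanin, lies on the minus strand of chromosome 7 (chr7:45238840-45238989) and holds a match to the motif of PU.1 and SPIB read from the other strand.
Alpi: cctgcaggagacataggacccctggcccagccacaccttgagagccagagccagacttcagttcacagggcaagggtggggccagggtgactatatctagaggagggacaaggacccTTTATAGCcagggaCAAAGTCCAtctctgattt
Sis: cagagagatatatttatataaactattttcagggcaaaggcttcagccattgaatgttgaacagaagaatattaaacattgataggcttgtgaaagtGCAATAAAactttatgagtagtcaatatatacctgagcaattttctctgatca
Fabp2: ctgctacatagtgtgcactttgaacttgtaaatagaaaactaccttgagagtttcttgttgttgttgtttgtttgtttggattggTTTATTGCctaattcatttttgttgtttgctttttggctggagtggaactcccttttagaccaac
Npc1l1: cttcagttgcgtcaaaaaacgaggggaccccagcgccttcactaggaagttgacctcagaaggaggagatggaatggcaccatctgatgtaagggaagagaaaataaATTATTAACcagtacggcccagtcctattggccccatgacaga
Vpreb3: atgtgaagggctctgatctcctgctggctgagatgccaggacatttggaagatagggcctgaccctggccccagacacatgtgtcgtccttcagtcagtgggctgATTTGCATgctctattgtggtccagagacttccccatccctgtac
Cd37: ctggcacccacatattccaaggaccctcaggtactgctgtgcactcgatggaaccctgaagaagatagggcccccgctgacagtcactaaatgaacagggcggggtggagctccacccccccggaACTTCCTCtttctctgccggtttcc

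These motifs were counted on both strands of the window from 250 bases before to 50 after the start in 27025 genes, of which 191 of the 251 genes higher in FAEB and 457 of the 652 higher in ILFB, both without ILFB repeat 5, could be matched by symbol. HNF4 letters (CAAAGTCCA) stood in 3.66% of the FAEB genes, 0.219% of the ILFB genes and 0.477% of all genes. CDX letters (TTTATNGC) stood in 5.76%, 1.31% and 2.72%, and HNF1 letters (GTTAATNAT) in 2.09%, 0.219% and 0.836%. The PU.1 and SPIB letters (GAGGAAGT) stood in 3.14% of the FAEB genes, 6.35% of the ILFB genes and 3.28% of all genes, and the octamer (ATTTGCAT) in 2.62%, 3.06% and 1.75%. These shares are descriptions with no test, they rest on as few as 1 gene, and a match is not evidence that a factor binds there.

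General epithelial genes that passed the test were all higher in FAEB. All 18 of the list had positive log2 fold changes with a median of 2.13, against -0.47 over all genes tested, and 5 of 18 were called (10 with the repeat as a block). Without ILFB repeat 5, the median was 3.10 and 15 of 18 were called. Krt20, the keratin of mature enterocytes, had 23, 88, 51, 17 and 23 UMIs in FAEB and 4, 7, 13, 6 and 13 in ILFB. The segments did not overlap per 10,000 UMIs, ILFB repeat 5 included, and the log2 fold change was 2.72 ± 0.81 (adjusted p = 0.0350). Cdh17, liver-intestine cadherin (3.55 ± 0.87), and Muc13, a membrane mucin (2.46 ± 0.73), were also called.

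For the defining markers the call turned on ILFB repeat 5. That library was set aside for its epithelial markers, so the larger values without it follow from that choice and are a description, for these genes and for the list. Epcam reached a log2 fold change of 2.01 ± 0.80 (adjusted p = 0.112) with all libraries and 3.50 ± 0.79 (adjusted p = 0.00217) without it. Vil1, villin, moved from 2.27 ± 0.81 (adjusted p = 0.0801) to 3.45 ± 0.83 (adjusted p = 0.00424). Cdh1, E-cadherin, moved from 2.49 ± 0.83 (adjusted p = 0.0617) to 2.91 ± 0.78 (adjusted p = 0.0110). With the repeat as a block and all 10 libraries, Epcam and Vil1 had adjusted p of 0.0155 and 0.0169.

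Among the genes of the brush border and of digestion, 10 of 20 were called, all higher in FAEB, with a median log2 fold change of 2.86. Without ILFB repeat 5, 14 of 20 were called with a median of 3.37. Lct, which encodes lactase, had 6, 64, 10, 22 and 30 UMIs in FAEB and 0, 5, 3, 0 and 0 in ILFB. Cdhr5, a protocadherin that links microvilli, had 25, 73, 74, 38 and 56 in FAEB and 3, 11, 19, 1 and 0 in ILFB. Neither gene overlapped between the segments, and their log2 fold changes were 4.81 ± 0.94 (adjusted p = 0.00018) and 3.84 ± 0.81 (adjusted p = 0.000796).

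Sis, whose start-site sequence is given above, had 33, 74, 60, 48 and 16 UMIs in FAEB and 0, 9, 3, 1 and 21 in ILFB. Its only high ILFB library was repeat 5, and the log2 fold change went from 3.02 ± 0.81 (adjusted p = 0.0132) to 4.75 ± 0.87 (adjusted p = 0.000195) when that library was left out. Alpi, a mark of mature enterocytes, had 0, 38, 4, 7 and 2 UMIs in FAEB and 0, 0, 1, 0 and 1 in ILFB. FAEB repeat 2 held most of its molecules, the segments overlapped at 0, and the log2 fold change was 4.68 ± 1.25 (adjusted p = 0.0132, and 0.0964 with the repeat as a block).

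The genes of fat absorption had the highest median of the epithelial lists. Of 18 tested, 9 were called, all higher in FAEB, with a median of 3.07, and without ILFB repeat 5 14 of 17 were called with a median of 3.43. Fabp2 had 37, 292, 48, 43 and 15 UMIs in FAEB and 2, 17, 14, 0 and 0 in ILFB. Npc1l1 had 0, 53, 10, 3 and 31 in FAEB and 0, 0, 0, 1 and 0 in ILFB. Fabp2 did not overlap between the segments and Npc1l1 did, since FAEB repeat 1 had none of it. Their log2 fold changes were 4.30 ± 0.80 (adjusted p = 5.67e-05) and 6.55 ± 1.16 (adjusted p = 1.52e-05).

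Within this list FAEB repeat 2 stood apart, with 530.3 UMIs per 10,000 against 22.4 to 98.3 in the other FAEB libraries. Apoa4, an apolipoprotein of chylomicrons, the particles that carry absorbed fat, had 8, 1640, 164, 59 and 93 UMIs in FAEB and 1, 41, 120, 1 and 5 in ILFB. Apoa1 had 72, 1240, 374, 189 and 221 in FAEB and 13, 99, 178, 2 and 68 in ILFB. Both overlapped between the segments, through FAEB repeat 1, and had log2 fold changes of 3.66 ± 0.73 (adjusted p = 0.000254) and 2.98 ± 0.67 (adjusted p = 0.00172). Apoc3, of which FAEB repeat 2 held 406 UMIs, had 4.11 ± 0.82. Apob, the structural protein of chylomicrons, passed only without ILFB repeat 5, at 4.62 ± 0.92 (adjusted p = 0.000564) against 2.50 ± 0.92 (adjusted p = 0.0897), and Mogat2, which rebuilds triglyceride, had 4.26 ± 1.10 (adjusted p = 0.00914). Cideb, a lipid droplet and lipoprotein protein, had 6, 20, 28, 19 and 15 UMIs in FAEB and 1, 1, 3, 0 and 1 in ILFB, with no overlap and a log2 fold change of 4.48 ± 1.00.

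Transporters of nutrients and ions showed fewer calls. Of 19 tested, 3 were called, all higher in FAEB, with a median of 2.43, and 6 of 18 without ILFB repeat 5. Atp1b1, the beta subunit of the sodium pump, had 37, 48, 64, 13 and 35 UMIs in FAEB and 5, 9, 9, 5 and 3 in ILFB, with no overlap (3.38 ± 0.82, adjusted p = 0.00443). Slc2a2, the GLUT2 glucose transporter, had 3, 24, 12, 0 and 4 in FAEB and a single UMI in ILFB repeat 1 (5.40 ± 1.38, adjusted p = 0.00778, and 0.0630 with the repeat as a block). Slc6a20a, an imino acid transporter, gave 4.76 ± 1.46 (adjusted p = 0.0413, and 0.104 with the block). Slc6a8, the creatine transporter, which belongs to none of the lists, had 7, 34, 9, 6 and 7 UMIs in FAEB and 0, 1, 0, 1 and 5 in ILFB (3.35 ± 1.05, and 5.09 ± 1.04 without ILFB repeat 5). Slc51b, a subunit of the basolateral bile acid exporter, missed the threshold at 3.09 ± 1.14 (adjusted p = 0.0897).

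Antibacterial genes of the enterocyte included Reg3b, the call with the smallest p on the epithelial lists. Reg3b, a secreted C-type lectin that kills bacteria in the mouse gut, had 33, 18, 139, 48 and 3 UMIs in FAEB and 1, 1, 4, 0 and 0 in ILFB. Reg3g, its relative that acts on Gram-positive bacteria, had 112, 124, 325, 116 and 148 in FAEB and 4, 36, 54, 0 and 33 in ILFB. Lypd8, which keeps flagellated bacteria off the epithelium in the mouse colon, had 41, 23, 102, 55 and 35 in FAEB and 0, 5, 7, 1 and 18 in ILFB. Reg3b and Reg3g did not overlap between the segments, and Lypd8 overlapped only through ILFB repeat 5. The log2 fold changes were 5.95 ± 0.96 for Reg3b (adjusted p = 1.05e-06), 3.16 ± 0.71 for Reg3g (adjusted p = 0.00172) and 3.45 ± 0.81 for Lypd8 (adjusted p = 0.00316). Without ILFB repeat 5 they were 5.65 ± 0.97, 3.55 ± 0.79 and 4.70 ± 0.86.

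These were 3 of 8 defence genes tested. Pigr, the receptor that carries IgA across the epithelium, had 340, 159, 378, 112 and 179 UMIs in FAEB and 20, 203, 384, 8 and 119 in ILFB. It was higher in FAEB per 10,000 in 5 of 5 repeats but the segments overlapped, and it was not called (1.32 ± 0.64, adjusted p = 0.221). Ccl25, the chemokine that draws CCR9-bearing lymphocytes to the small intestine (1.74 ± 0.77, adjusted p = 0.164), and Nlrp6 (2.47 ± 0.90, adjusted p = 0.0875) were not called either.

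Goblet cell genes were higher in FAEB for 4 of 7 tested, with a median of 2.68, and the same count was reached without ILFB repeat 5. Muc2, the gel-forming mucin, had 13, 16, 34, 47 and 9 UMIs in FAEB and 6, 7, 9, 0 and 0 in ILFB, with no overlap (3.36 ± 0.89, adjusted p = 0.0119). Fcgbp, a mucus protein, had 22, 59, 93, 42 and 19 in FAEB and 2, 23, 31, 0 and 5 in ILFB, with no overlap either (2.68 ± 0.77, adjusted p = 0.0258). Zg16, a lectin of mucus (3.25 ± 0.87), and Tff3, trefoil factor 3 (3.14 ± 0.87), overlapped between the segments through ILFB repeat 3, which held 42 and 20 UMIs of them.

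Genes of xenobiotic and retinoid metabolism followed the same direction. All 13 had positive log2 fold changes with a median of 2.52, 3 were called, and 9 without ILFB repeat 5. Ces2a, a carboxylesterase, had 3, 40, 18, 0 and 16 UMIs in FAEB and 0, 1, 3, 0 and 0 in ILFB (4.73 ± 1.06, adjusted p = 0.00172). Cyp2d26, a cytochrome P450, was low but present in every FAEB library, with 3, 3, 2, 6 and 2 UMIs, and had 0 in all ILFB libraries, so that it was at least 8.71-fold higher in FAEB (adjusted p = 0.0327, and 0.0801 with the repeat as a block). Cyp3a13 had 5, 70, 12, 1 and 0 UMIs in FAEB, most of them in repeat 2, and 0, 4, 6, 0 and 0 in ILFB. The segments overlapped, and its log2 fold change was 3.15 ± 0.98 (adjusted p = 0.0442, and 0.0529 with the block).

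Transcription factors of the enterocyte were low. Of 12 tested, 11 had a positive log2 fold change and edgeR called 0 with all libraries (7 at an unadjusted p under 0.05, 2 called by DESeq2 and 3 by limma-voom) and 3 without ILFB repeat 5. Elf3, an epithelial ETS factor, had 4, 6, 21, 5 and 20 UMIs in FAEB and 1, 2, 5, 0 and 0 in ILFB (3.38 ± 1.09, adjusted p = 0.0501, and 3.02 ± 0.96 with adjusted p = 0.0308 without ILFB repeat 5). Elf3 was part of the label check that ILFB repeat 5 failed, so its value without that library is a description. Klf5 and Vdr, the vitamin D receptor, passed only without ILFB repeat 5, at 2.75 ± 0.79 (adjusted p = 0.0183) and 3.19 ± 1.10 (adjusted p = 0.0440). Cdx2, the intestinal identity factor, had 5, 1, 8, 2 and 6 UMIs in FAEB and 0, 3, 2, 0 and 0 in ILFB and was not called in either fit (2.75 ± 1.33 with all libraries, adjusted p = 0.222).

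Several calls higher in FAEB lay outside these lists. Kitl, which encodes stem cell factor, the ligand of KIT, had 4, 112, 2, 3 and 266 UMIs in FAEB and 0, 2, 3, 4 and 0 in ILFB. The segments parted per 10,000 only by a narrow margin, with 0.199 in FAEB repeat 3 against 0.187 in ILFB repeat 4. FAEB repeats 2 and 5 held nearly all of the Kitl molecules, and the log2 fold change of Kitl was 6.24 ± 0.91 (adjusted p = 2.96e-08). Without FAEB repeat 5 it was 3.63 and not called (adjusted p = 0.0616), and with the repeat as a block it was 4.31 (adjusted p = 0.0041). Maoa, monoamine oxidase A, was present in every FAEB library with 10, 15, 14, 15 and 4 UMIs against 1, 1, 2, 0 and 0 in ILFB (4.54 ± 1.11, adjusted p = 0.00489). Guca2a, which encodes guanylin, a regulator of fluid secretion, had 14, 115, 76, 67 and 45 UMIs in FAEB and 5, 8, 20, 0 and 1 in ILFB. It was named after its values were seen, as were Spink1, a trypsin inhibitor (3.92 ± 0.83), and Aoc1, diamine oxidase (4.10 ± 0.90). All 3 were higher in FAEB in the 10-library fit, with adjusted p between 0.000202 and 0.00146.

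**Figure D3:**
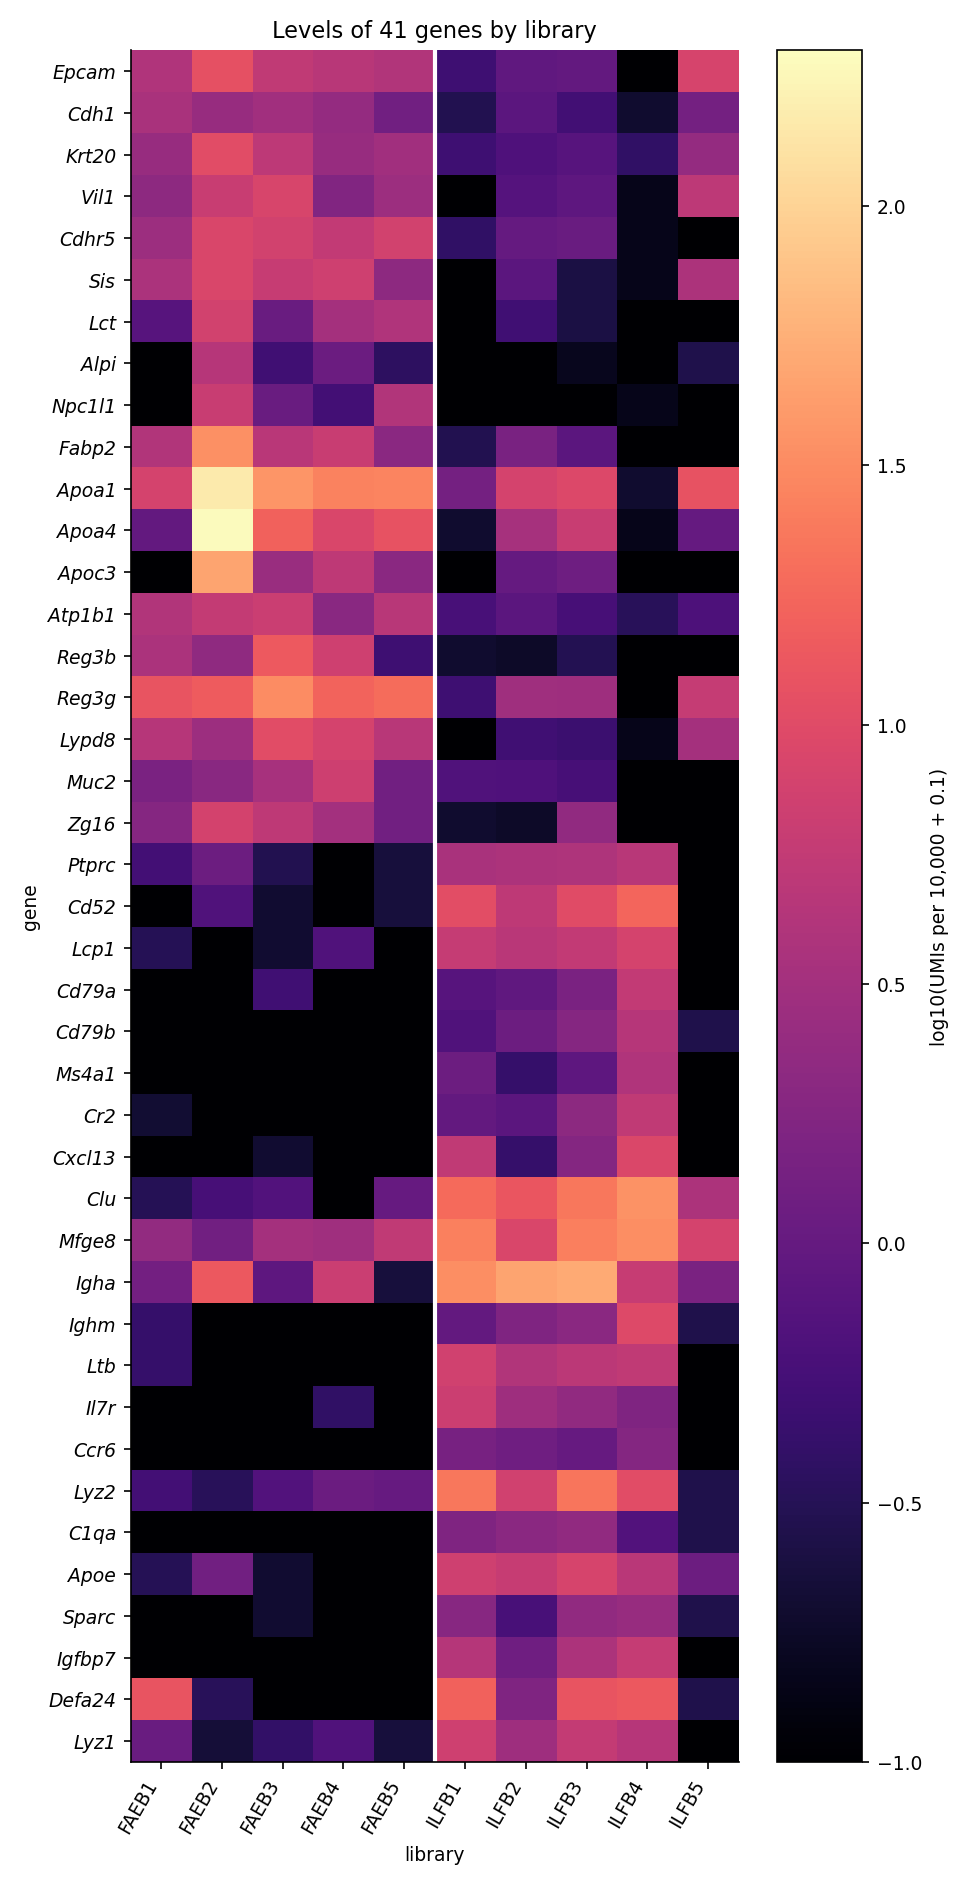
Level of 41 genes (rows, epithelial genes above and follicle and crypt genes below) in the 5 FAEB and 5 ILFB libraries (columns, parted by the white line), coloured by log10 of UMIs per 10,000 plus 0.1, with black at or near 0. The upper block is bright in FAEB and in part in ILFB repeat 5, the lower block is bright in ILFB repeats 1 to 4, and Defa24 is also bright in FAEB repeat 1.

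General leukocyte genes that passed the test were all higher in ILFB. All 16 tested had negative log2 fold changes with a median of -3.24, and 8 were called. Without ILFB repeat 5, 12 were called with a median of -3.68. These genes were part of the label check that ILFB repeat 5 failed. Their larger values without that library are therefore a description, for the list and for Ptprc. Cd52, a small surface glycoprotein of lymphocytes, had 0, 5, 1, 0 and 1 UMIs in FAEB and 110, 63, 194, 362 and 0 in ILFB. Lcp1, the actin-bundling plastin of leukocytes, had 2, 0, 1, 4 and 0 in FAEB and 60, 58, 105, 166 and 0 in ILFB. For both, ILFB repeats 1 to 4 lay far above every FAEB library and ILFB repeat 5 was at 0. The log2 fold changes were -5.51 ± 0.92 (adjusted p = 2.96e-06) and -4.49 ± 0.92 (adjusted p = 0.000413).

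Coro1a, a coronin of leukocytes (-4.34 ± 0.95, adjusted p = 0.00146), and Cd37 (-4.19 ± 1.01, adjusted p = 0.00443) were called too, the latter named after its values were seen. Ptprc had a log2 fold change of -3.23 ± 0.90 (adjusted p = 0.0174, and 0.0843 with the repeat as a block) and of -3.55 ± 0.79 (adjusted p = 0.00191) without ILFB repeat 5. Srgn, serglycin, the proteoglycan of secretory granules, was also named after its values were seen. It had 0 UMIs in FAEB and 15, 5, 28, 46 and 0 in ILFB, at least 19.2-fold higher.

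Among B cell genes, 9 of 22 were called, all higher in ILFB, with a median of -2.90 (-2.76 with genes at 0 set to their bound), and 15 of 22 without ILFB repeat 5. Cd79b, a signalling chain of the B cell receptor, had 0 UMIs in all FAEB libraries and 6, 13, 34, 95 and 1 in ILFB. It was present in every ILFB library, at least 30.4-fold higher over the group (adjusted p = 0.000796). Its partner Cd79a had 0, 0, 4, 0 and 0 in FAEB and 7, 10, 27, 118 and 0 in ILFB (-4.12 ± 1.11, adjusted p = 0.0134, and 0.0643 with the repeat as a block).

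Ms4a1, which encodes CD20, had 0 UMIs in FAEB and 11, 4, 15, 84 and 0 in ILFB, at least 23.3-fold higher (adjusted p = 0.00443). Vpreb3, with the octamer shown above, had 0 in FAEB and 14, 7, 11, 76 and 0 in ILFB, at least 22-fold higher (adjusted p = 0.00422). ILFB repeat 4, the deepest library, held most of the molecules of both. Ly6d (at least 22.9-fold higher), Mef2c, a transcription factor of B cells and myeloid cells (-5.11 ± 1.33), and Napsa, an aspartic protease (-5.58 ± 1.24), were called as well.

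Clu and Mfge8, genes known from follicular dendritic cells, were higher in ILFB, and which cells made them here was not tested. Clu, clusterin, had 2, 4, 6, 0 and 7 UMIs in FAEB and 198, 158, 452, 759 and 21 in ILFB. Mfge8, which tags dying cells for uptake, had 21, 10, 32, 20 and 41 in FAEB and 281, 107, 500, 699 and 44 in ILFB. Neither overlapped between the segments per 10,000, ILFB repeat 5 included, although that library was the lowest of the ILFB group for both. The log2 fold changes were -5.25 ± 0.81 (adjusted p = 2.72e-07) and -2.63 ± 0.69 (adjusted p = 0.0119), and -5.69 ± 0.75 and -3.05 ± 0.63 without ILFB repeat 5.

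Cxcl13, the chemokine that gathers B cells, had 0, 0, 1, 0 and 0 UMIs in FAEB and 56, 4, 33, 188 and 0 in ILFB. Cr2, the complement receptor CD21 of B cells and follicular dendritic cells, had 1, 0, 0, 0 and 0 in FAEB and 9, 9, 39, 112 and 0 in ILFB. Both were absent from ILFB repeat 5 and above every FAEB library in the other ILFB repeats (-6.41 ± 1.17 with adjusted p = 3.34e-05, and -5.38 ± 1.26 with adjusted p = 0.00313). They were the 2 of 5 follicle and germinal centre genes that were called. Cxcr5, the receptor for CXCL13, had 0 in FAEB and 3, 2, 5, 15 and 0 in ILFB. It passed only without ILFB repeat 5 (adjusted p = 0.0320 against 0.0937). Fcer2a, CD23, missed the threshold in both fits (adjusted p = 0.292 and 0.112).

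Clu, Mfge8 and Ncf4 also stand on the M cell list, taken from the study's supplement, where they were the 3 of 28 called with all libraries, all higher in ILFB. That list had a median of -0.40, against -0.47 over all genes, and of -0.80 without ILFB repeat 5, against -0.73. In that fit 6 of its genes were higher in ILFB and 2 in FAEB, among the latter Rnf128 (3.12 ± 0.97, adjusted p = 0.0284). Ncf4 encodes a subunit of the phagocyte NADPH oxidase and had 0 in FAEB and 2, 5, 16, 30 and 0 in ILFB, at least 10.8-fold higher (adjusted p = 0.0447, and 0.130 with the repeat as a block).

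Immunoglobulin genes separated the segments with a different pattern among libraries. Igha, the heavy chain of IgA, had 11, 115, 8, 44 and 1 UMIs in FAEB and 348, 583, 1012, 129 and 8 in ILFB. Ighm, the IgM heavy chain, had 3, 0, 0, 0 and 0 in FAEB and 9, 19, 38, 204 and 1 in ILFB. Igha was highest in ILFB repeats 2 and 3 and Ighm in ILFB repeat 4, and FAEB repeats 2 and 4 reached into the range of Igha in ILFB. The log2 fold changes were -2.65 ± 0.68 (adjusted p = 0.00778) and -4.81 ± 1.08 (adjusted p = 0.00172).

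Ighd, the IgD heavy chain of naive B cells, had 0 in FAEB and 10, 6, 45, 45 and 2 in ILFB, at least 22-fold higher. Across the plasma cell and immunoglobulin list 5 of 10 were called (2 with the repeat as a block), all higher in ILFB, with a median of -2.84, and 7 of 9 without ILFB repeat 5. Iglc2, a lambda light chain whose reads may be shared with its copies, had 4, 3, 14, 60 and 0 UMIs in ILFB and 0 in FAEB (at least 16.5-fold higher, adjusted p = 0.0224, and 0.0808 with the repeat as a block). Pou2af1, the coactivator of OCT proteins in B cells, had 6, 7, 10, 23 and 1 in ILFB and 0 in FAEB (at least 9.59-fold higher, adjusted p = 0.0426, and 0.0909 with the block).

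Genes of LTi and related innate lymphoid cells were called for 5 of 11 tested, all higher in ILFB, with a median of -4.79 (-3.79 with the genes at 0 set to their bound), and for 9 of 11 without ILFB repeat 5. Ltb, lymphotoxin beta, had 3, 0, 0, 0 and 0 UMIs in FAEB and 75, 50, 95, 113 and 0 in ILFB. Il7r, the receptor for interleukin-7, had 0, 0, 0, 2 and 0 in FAEB and 69, 35, 43, 33 and 0 in ILFB. Both were above every FAEB library in ILFB repeats 1 to 4 and at 0 in ILFB repeat 5 (-5.72 ± 1.04 with adjusted p = 3.14e-05, and -4.99 ± 1.11 with adjusted p = 0.0017).

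Ccr6, the receptor for CCL20, had 0 in FAEB and 14, 14, 18, 36 and 0 in ILFB (at least 16.7-fold higher, adjusted p = 0.00776). Nrp1, a marker of LTi cells in the mouse, had 0 in FAEB and 18, 12, 19, 19 and 0 in ILFB (at least 13.9-fold higher, adjusted p = 0.0136).

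T cell genes gave fewer calls, 4 of 15 (1 with the repeat as a block) with a median of -2.28, and 5 of 15 without ILFB repeat 5. The defining genes were near 0 in both segments. Cd3e had 3 UMIs over the FAEB libraries, all in repeat 5, and 3 and 2 in ILFB repeats 3 and 4, and Cd8a had 2, 6, 2, 0 and 0 in FAEB and 2, 3, 2, 0 and 0 in ILFB, so that neither was tested. Gzma, granzyme A, had 4, 6, 1, 3 and 7 in FAEB and 0, 8, 0, 1 and 0 in ILFB (2.43 ± 1.30, adjusted p = 0.295).

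The T cell members that were called are shared with other cells. Fcer1g, a signalling chain of myeloid and natural killer cells, had 0, 2, 1, 0 and 0 UMIs in FAEB and 34, 9, 19, 37 and 18 in ILFB (-4.37 ± 1.09, adjusted p = 0.00657). The segments did not overlap, ILFB repeat 5 included. Tyrobp, another adaptor of myeloid and natural killer cells, had -4.27 ± 1.29 (adjusted p = 0.0362). Id2, the inhibitor that innate lymphoid cells need, had -2.92 ± 0.92 (adjusted p = 0.0443). Thy1, of T cells and innate lymphoid cells, had 0 in FAEB and 12, 0, 22, 18 and 0 in ILFB (at least 10.6-fold higher, adjusted p = 0.0403). With the repeat as a block, Tyrobp, Id2 and Thy1 had adjusted p of 0.168, 0.126 and 0.140.

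Macrophage genes were called for 3 of 9, all higher in ILFB, with a median of -3.54, and for 6 of 9 without ILFB repeat 5. Lyz2, the lysozyme of myeloid cells, had 4, 2, 6, 7 and 7 UMIs in FAEB and 240, 90, 430, 223 and 1 in ILFB. Apoe, apolipoprotein E, had 2, 10, 1, 0 and 0 in FAEB and 72, 74, 155, 101 and 6 in ILFB. C1qa, a chain of complement C1q, had 0 in FAEB and 16, 24, 43, 13 and 1 in ILFB. Each was far higher in ILFB repeats 1 to 4 than in any FAEB library (-4.15 ± 0.80 with adjusted p = 0.000117 for Lyz2, -4.48 ± 0.92 with adjusted p = 0.00044 for Apoe, and at least 19.8-fold with adjusted p = 0.00208 for C1qa). C1qc passed only without ILFB repeat 5 (adjusted p = 0.00885 against 0.0727).

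Dendritic cell genes were sparse, and 1 of 5 was called. This was Bst2, tetherin, also an interferon-induced gene, with 0, 0, 1, 0 and 0 UMIs in FAEB and 13, 7, 33, 25 and 6 in ILFB (-5.00 ± 1.40, adjusted p = 0.0201). Itgax, CD11c, had 0, 0, 0, 1 and 1 in FAEB and 20, 7, 42, 13 and 0 in ILFB and passed only without ILFB repeat 5 (adjusted p = 0.00428 against 0.0508). Zbtb46 and Batf3, transcription factors of conventional dendritic cells, had 10 and 26 UMIs over all ILFB libraries and were not called.

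The MHC class II genes, which present antigen, were detected on both sides. H2-Aa had 41, 87, 80, 5 and 66 UMIs in FAEB and 285, 250, 597, 688 and 14 in ILFB. H2-Eb1 had 24, 46, 42, 6 and 46 in FAEB and 213, 174, 493, 485 and 12 in ILFB. With all libraries neither was called (adjusted p = 0.104 and 0.0646), and without ILFB repeat 5 both were, at -2.11 ± 0.62 (adjusted p = 0.0217) and -2.44 ± 0.63 (adjusted p = 0.00836). In that fit 7 of 10 members were higher in ILFB, against 1 of 10 with all libraries. That gene was H2-Ob, part of the B cell modulator H2-O, with 0 in FAEB and 0, 4, 15, 53 and 1 in ILFB (at least 14.9-fold higher, adjusted p = 0.0340, and 0.0909 with the repeat as a block). H2-Oa, its partner, passed without ILFB repeat 5 (adjusted p = 0.0166).

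Of the chemokine and homing genes, 3 of 10 were called higher in ILFB and 5 of 10 without ILFB repeat 5. Beside Cxcl13 and Ccr6, this was Ccr9, the receptor for CCL25, with 0 in FAEB and 10, 5, 21, 17 and 0 in ILFB (at least 10.8-fold higher, adjusted p = 0.0344, and 0.0869 with the repeat as a block). Cxcr4 passed only without ILFB repeat 5 (adjusted p = 0.0315 against 0.0897). It was part of the label check that this library failed, so the value without it is a description.

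Among transcription factors of lymphocytes, 5 of 20 were higher in ILFB (3 with the repeat as a block), with a median of -3.55 (-2.56 with genes at 0 set to their bound), and 12 of 20 without ILFB repeat 5. Runx3, which T cells and innate lymphoid cells use, had 0 in FAEB and 31, 14, 36, 28 and 0 in ILFB (at least 22.2-fold higher, adjusted p = 0.0017). Pou2f2, which encodes OCT2, had 8 UMIs in FAEB, all in repeat 3, and 14, 37, 43, 111 and 1 in ILFB (-3.83 ± 0.97, adjusted p = 0.00727). Spi1, which encodes PU.1, had 0 in FAEB and 6, 9, 18, 20 and 1 in ILFB (at least 11-fold higher, adjusted p = 0.0302, and 0.0618 with the repeat as a block).

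Stromal and matrix genes that passed the test were all higher in ILFB. Of 12 tested, 6 were called (2 with the repeat as a block) with a median of -4.09 (-3.68 with genes at 0 set to their bound), and 9 without ILFB repeat 5. Igfbp7, a secreted binding protein of stromal and endothelial cells, had 0 in all FAEB libraries and 45, 14, 72, 124 and 0 in ILFB. It was at least 52.0-fold higher, and at least 56.6-fold without ILFB repeat 5 (adjusted p = 5.65e-06 and 2.47e-06). Sparc, a collagen-binding matrix protein, had 0, 0, 1, 0 and 0 UMIs in FAEB and 19, 6, 43, 53 and 1 in ILFB (-5.33 ± 1.32, adjusted p = 0.00587). Bgn, biglycan (-4.16 ± 1.20, adjusted p = 0.0261), and Col3a1, collagen III (at least 11-fold higher, adjusted p = 0.0306), were called with adjusted p of 0.0649 and 0.0939 with the repeat as a block.

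Flna, filamin A, had 0 in FAEB and 9, 12, 28, 57 and 0 in ILFB (at least 21.6-fold higher). Grem1, a BMP antagonist of stromal cells, was at 0 in FAEB and at 3, 0, 4, 10 and 0 in ILFB and missed the threshold (adjusted p = 0.129). Of 3 endothelial and 3 smooth muscle genes tested, edgeR called 0 with all libraries (0 and 1 at an unadjusted p under 0.05) and 0 without ILFB repeat 5 (0 and 2), and DESeq2 and limma-voom called 0. Pecam1, CD31, had 9, 15, 21, 13 and 2 UMIs in FAEB and 21, 58, 39, 51 and 5 in ILFB (-0.54 ± 0.77), and Mylk, the myosin light chain kinase, had a log2 fold change of 1.07 ± 0.80.

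**Figure D4:**
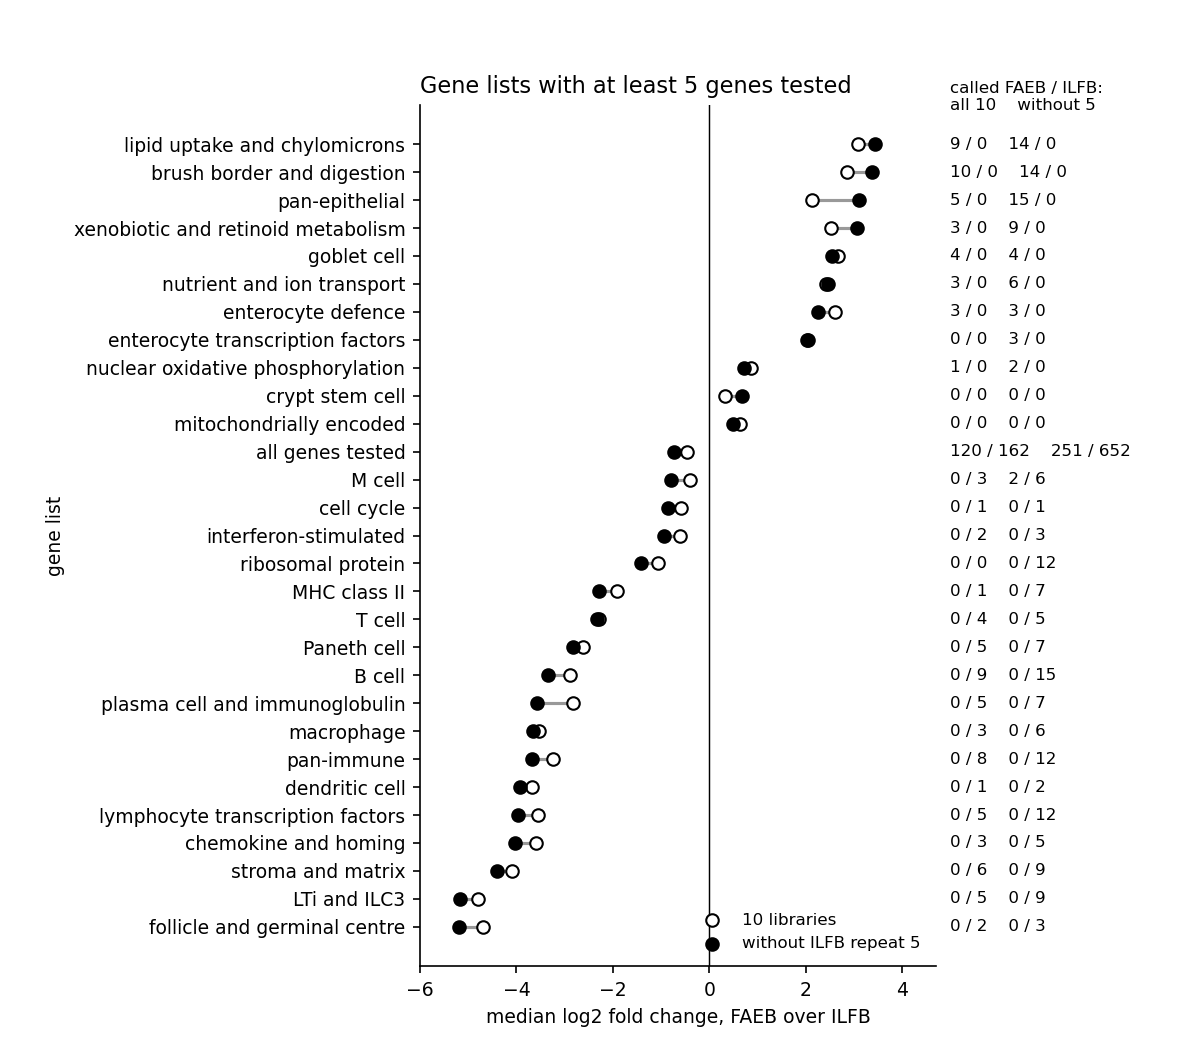
Median log2 fold change of FAEB over ILFB (x axis) for each gene list with at least 5 genes tested (y axis), with all 10 libraries (open circles) and without ILFB repeat 5 (filled circles). The figures at the right give the genes called higher in FAEB and in ILFB, first with all 10 libraries and then without ILFB repeat 5. The lists of epithelial function lie above 2, and those of the follicle below -1.9, against -0.47 and -0.73 for all genes tested.

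Crypt genes did not all follow the epithelium. Paneth cell genes, although epithelial, were called for 5 of 14 tested (2 with the repeat as a block), all higher in ILFB, with a median of -2.62, and for 7 of 14 without ILFB repeat 5. Defa24, an alpha-defensin, had 112, 2, 0, 0 and 0 UMIs in FAEB and 171, 19, 241, 292 and 1 in ILFB (-4.04 ± 1.10, adjusted p = 0.0149). Defa17 had 114, 1, 2, 0 and 0 in FAEB and 130, 35, 209, 248 and 1 in ILFB (-3.34 ± 1.03, adjusted p = 0.0413). Within mouse 1 alone the fitted log2 fold changes were 0.01 and 0.20, where FAEB repeat 1 held nearly all of the FAEB UMIs. The mean log2 levels over the repeats of mouse 1 still differed by -1.09 and -1.72, with FAEB lower. Alpha-defensin genes are near-identical copies whose reads may be shared, so the values of single members are uncertain.

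Lyz1, the Paneth cell lysozyme, had 9, 1, 3, 4 and 1 UMIs in FAEB and 73, 35, 109, 95 and 0 in ILFB (-2.97 ± 0.84, adjusted p = 0.0212, and 0.0630 with the repeat as a block). Unlike Defa24 and Defa17, it was low in FAEB repeat 1, at 0.98 UMIs per 10,000 against 6.99 in ILFB repeat 1. Lyz1 lies beside Lyz2 on chromosome 10, and whether they share reads was not tested. The Paneth list summed to 64.2 UMIs per 10,000 in FAEB repeat 1 and to 0.131 to 3.74 in the other FAEB libraries, and to 72.7, 12.75, 56.4 and 88.1 in ILFB repeats 1 to 4 and 0.534 in repeat 5. Defa21 was carried by ILFB repeat 4, with 238 of its UMIs (adjusted p = 0.0453, and 0.282 with the block). The same ILFB libraries had pan-epithelial sums of 4.79, 14.1, 16.2 and 1.12, so the library with the most Paneth UMIs had the fewest general epithelial UMIs. The part of crypt tissue in the dissected areas was not tested.

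Stem cell and cycling genes gave little. Of 5 crypt stem cell genes tested, edgeR called 0 (1 at an unadjusted p under 0.05), as did DESeq2 and limma-voom, and without ILFB repeat 5 edgeR called 0 of 4. Lgr5, the crypt stem cell receptor, had 7, 7, 6, 11 and 3 UMIs in FAEB and 10, 13, 12, 25 and 0 in ILFB (0.33 ± 0.89, adjusted p = 0.902). Of 12 cell cycle genes 1 was called, Tubb5, a beta-tubulin found in many cells, with 0, 0, 1, 0 and 0 UMIs in FAEB and 20, 13, 51, 56 and 0 in ILFB (-5.53 ± 1.27, adjusted p = 0.00227). The replication genes Pcna (-1.60 ± 1.37) and Tyms (1.81 ± 1.38) went in opposite directions and neither was called.

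Housekeeping groups had medians nearer to 0 than the lists of epithelial function and of the follicle, while that of all genes tested was -0.47. The 11 mitochondrially encoded genes of the list had a median of 0.63. With and without ILFB repeat 5 edgeR called 0 of them (1 at an unadjusted p under 0.05 in each fit), while DESeq2 and limma-voom called 1 each. Of these, mt-Co1 had 109, 304, 129, 276 and 243 UMIs in FAEB and 43, 138, 179, 188 and 84 in ILFB (1.62 ± 0.64, adjusted p = 0.111). The list holds only part of the mitochondrial UMIs. All genes with an mt- symbol summed to 1442 to 2325 UMIs per 10,000 in FAEB. In ILFB they summed to 543.6 to 1564 in repeats 1 to 4 and to 1658 in repeat 5. These UMIs are part of the library totals behind every value per 10,000. Among 75 nuclear genes of oxidative phosphorylation, 65 had positive log2 fold changes with a median of 0.86, and 1 was called, Cox7a1 (3.79 ± 1.12, adjusted p = 0.0322, and 0.0662 with the repeat as a block). Uqcrc1, a core subunit of complex III, joined it without ILFB repeat 5 (adjusted p = 0.0452). Over all genes tested, 1.6% were called higher in FAEB, and 3.41% without ILFB repeat 5.

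Ribosomal protein genes pointed the other way. Of 86 tested, 81 had negative log2 fold changes with a median of -1.07 (-0.90 with RLE size factors). The median over all genes tested was -0.47 (-0.25 with RLE size factors). With all libraries edgeR called 0 (18 at an unadjusted p under 0.05, 2 called by DESeq2 and 3 by limma-voom), and without ILFB repeat 5 12 of 86 were higher in ILFB, with a median of -1.42. Over all genes that last fit called 8.87% higher in ILFB, with a median of -0.73. Rps27 had 31, 15, 35, 32 and 46 UMIs in FAEB and 178, 120, 289, 732 and 4 in ILFB (adjusted p = 0.0931, and 0.0111 without ILFB repeat 5). Rps4x had 10, 3, 20, 13 and 13 in FAEB and 71, 42, 136, 203 and 21 in ILFB, with no overlap per 10,000 (adjusted p = 0.0972, and 0.0183 without ILFB repeat 5). The ribosomal sum was 63.8 to 512.9 UMIs per 10,000 in FAEB and 367.6 to 1106 in ILFB.

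**Figure D5:**
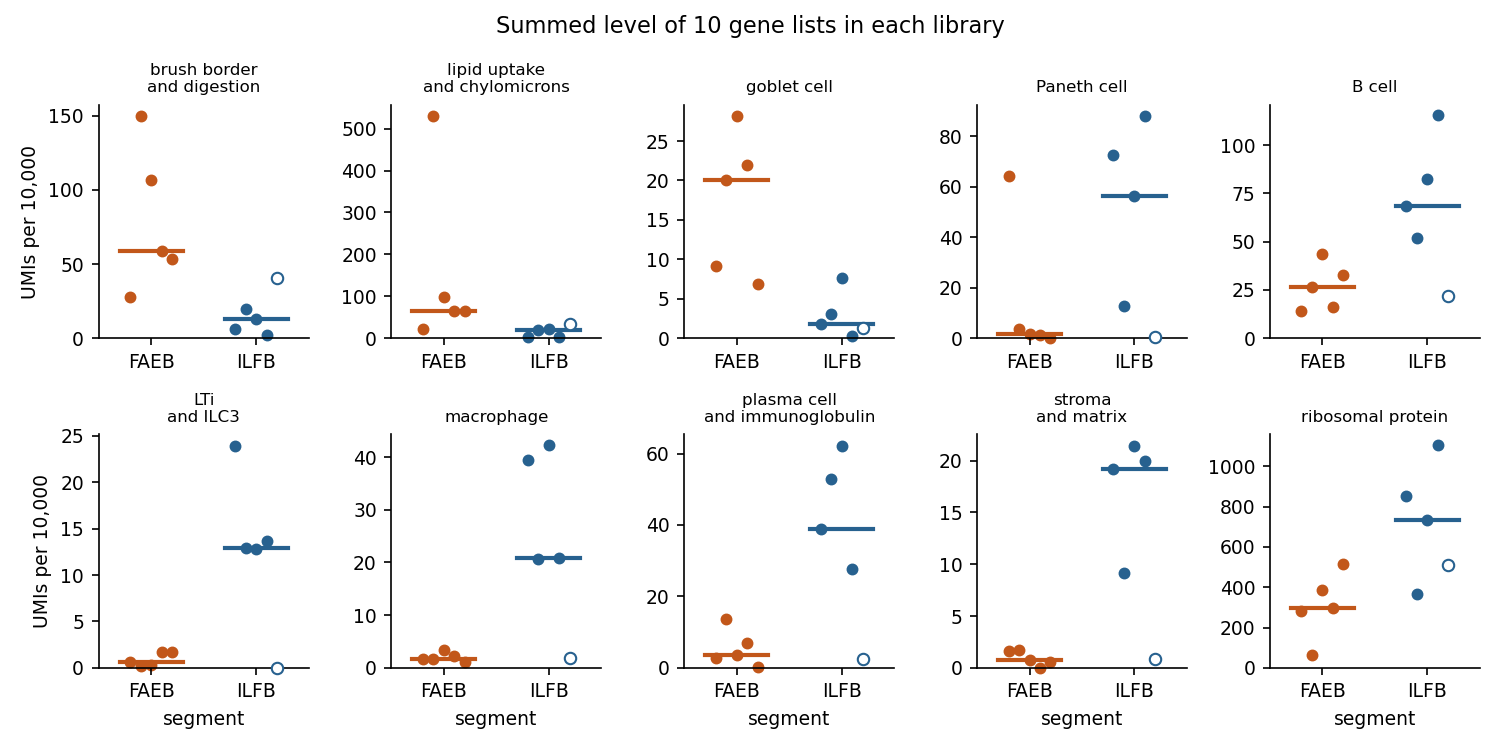
Summed UMIs per 10,000 (y axis, linear, a scale of its own in each panel) of 10 gene lists in the 5 FAEB (orange) and 5 ILFB (blue) libraries (x axis), with 1 point per library, a bar at the median and ILFB repeat 5 as an open circle. FAEB repeat 2 stands apart for lipid uptake at 530.3, FAEB repeat 1 for Paneth cell genes at 64.2, and ILFB repeat 5 lies with the FAEB libraries for the B cell, LTi, macrophage, plasma cell and stroma lists.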

How the data were processed

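The authors processed reads with zUMIs and STAR against GRCm38 and the Ensembl release 84 annotation. Versions of both tools are not given in the sources used, and the submitters' notes also name bcl2fastq 2.15.0.4. The table deposited by the authors holds raw, unnormalized UMI counts of 24089 genes in 25 libraries, with 0 columns that lack a sample. The paper names mcSCRB-seq, while a label also names a SMART-seq kit for LCM tissue. Bounds for genes at 0 used a floor of 3 UMIs over the group and cover counting error only.

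Genes reaching 3 UMIs in 3 or more of the 10 libraries were tested with edgeR 4.0.16 (R 4.3.3), glmQLFit and glmQLFTest, TMM factors and a model of mouse plus segment, 2-sided, adjusted by Benjamini-Hochberg over all genes tested. Standard errors are the fold change divided by the root of its F statistic. The biological coefficient of variation was 0.943. The fit was tested on simulated data. Libraries with the same repeat number come from 1 animal and 1 set of sections, so the numbers pair them by design, and their deviations from the group means correlated at 0.014 to 0.105. No libraries of a group were alike within sampling noise (lowest chi-square per degree of freedom 5.87). Alternatives used RLE factors, library sizes without mitochondrial and very abundant genes, DESeq2 1.42.0, limma-voom 3.58.1, other filters, covariates and sets of libraries, and left out each library.

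Lists were described without a test. Those for M cells, B cells, T cells and ribosomal proteins come from the study's supplement, the others from general knowledge. Members, lists and tests were chosen with earlier results of these data known. Named genes were, in each direction and with and without ILFB repeat 5, up to 12 called genes of largest fold change whose higher group averaged 10 or more UMIs and whose direction held in 4 or more of 5 repeats. Up to 4 members of each list with the smallest p, members called against their list, 4 compartment checks and genes the paper names were added. Not all are printed, some genes are not reported here, and Guca2a, Spink1, Aoc1, Srgn, Cd37 and Phldb1 were chosen after their values were seen. Overlaps came from GENCODE release M21 (23970 genes matched) and start-site sequences from RefSeq (GRCm38.p6). Figures were drawn with matplotlib 3.10.9.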

Additional observations from a re-analysis of the deposited data

Results flagged for a closer look

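In groups of 5 libraries, the highest or lowest library was set against the others. The measures included the summed level of each gene list. Of 74 such comparisons, 6 passed Dixon's 95% limit of 0.71, where chance flags about 1 in 20, and all 6 were of list sums. All values are UMIs per 10,000. In FAEB, repeat 2 was high for pan-immune genes (6.08, others 2.40 to 3.19) and for lipid uptake and chylomicron genes (530.3, others 22.4 to 98.3), and repeat 1 for Paneth cell genes (64.2, others 0.131 to 3.74). In ILFB, repeat 5 was high for pan-epithelial genes (83.4, others 1.12 to 16.2), the genes for which it had already been set apart, so that this adds no evidence, and for xenobiotic and retinoid metabolism (16.2, others 0.608 to 4.11), and repeat 1 for enteric nerve and glia genes (2.59, others 0 to 0.726).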

How the results depend on the processing

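With 120 genes higher in FAEB and 162 higher in ILFB as the reference, DESeq2 gave 191 and 98 (5555 genes with an adjusted p), limma-voom 232 and 259, no filter beyond 1 UMI 54 and 84, a filter of 3 UMIs in 5 libraries 64 and 48, all 25 libraries 15 and 34, the 19 libraries whose markers went with their label 115 and 453, no mouse term 163 and 248, the replicate block 91 and 74, the block without ILFB repeat 5 205 and 315, mouse 1 alone 0 and 0, mouse 2 alone 12 and 8, and both libraries of repeat 5 left out, chosen after seeing the data, 248 and 444. Leaving out each library in turn gave 35 to 251 and 58 to 652. RLE factors (173 and 124) and library sizes without mitochondrial and very abundant genes (120 and 158) stayed within 1.5 times. The causes were not tested, beyond the fewer or more libraries and genes that a setting holds.

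Of 90 called genes named, the replicate block kept 68 and changed the sign of 0, and leaving out 1 library kept 47 to 90. The log2 fold change of Defa24 and the log2 fold change of Defa17 changed sign within mouse 1 (0.007 and 0.204). The log2 fold change of Lgr5 changed sign with the 19 libraries (-0.204) and within mouse 1 (-0.049), and ran from -0.291 (without FAEB repeat 4) to 0.57 (without ILFB repeat 4) as libraries were left out, with -0.133 without ILFB repeat 5. Depth limits genes of few UMIs: 80 of the genes higher in ILFB had 0 UMIs in FAEB.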

Other observations

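Interferon-stimulated genes were near the median of all genes, with 2 of 10 called (1 with the repeat as a block), both higher in ILFB, and a median log2 fold change of -0.62. Bst2 was one of them. Ifitm3, which restricts virus entry, had 4, 0, 1, 0 and 6 UMIs in FAEB and 34, 19, 65, 72 and 1 in ILFB (-2.96 ± 0.90, adjusted p = 0.0380 in edgeR, and 0.0757 with the repeat as a block).

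Genes outside all lists were also at 0 in FAEB. Gm26740, annotated as antisense, had 19, 23, 28, 27 and 0 UMIs in ILFB (at least 19.8-fold higher), and 4930523C07Rik had 13, 10, 41, 34 and 0 (at least 20.0-fold higher). Both were detected in each of ILFB repeats 1 to 4 and were called whichever library was left out. Hba-a2, an alpha-globin of red blood cells with a near-identical copy, was called in each of those fits too, with 11, 3, 14, 0 and 43 UMIs in ILFB, most of them in repeat 5. Pold1, the catalytic subunit of DNA polymerase delta, had 4, 1, 5, 100 and 17, most of them in repeat 4.

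Kitl, uneven among FAEB libraries, had 10 UMIs over the villus bottom libraries, 89 over the libraries of the FAE top and 222 over those of the ILF top. No explanation was tested for these values.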
